A study of Mus musculus with 8 samples.

Results

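The gamma-secretase complex was followed through its subunit genes, and the 6 genes Psen2, Ncstn, Aph1a, Aph1b, Aph1c and Psenen were taken by symbol from the 30211 genes that were counted. Other subunit genes were not analysed here. The counts came from nuclei of the hippocampus sequenced singly, with 1 library per mouse and 8 libraries in all, from mice labelled C57BL/6 and kept, by the study's methods, on C57BL/6N. At 7 mo of age 3 WT and 3 GKO mice were sampled, and at 6 mo a single J20;WT and a single J20;GKO mouse. GKO mice lack Gsap (gamma-secretase activating protein) in all tissues, after deletion of internal exons by Cre under the CMV promoter. J20 mice carry human APP with the Swedish and Indiana mutations under the PDGFB promoter, and J20;GKO mice carry the transgene and the Gsap deletion together. WT and J20;WT mice keep Gsap, and the study drew on male and female littermates.

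Gamma-secretase is a protease that cuts proteins inside the membrane. It releases amyloid beta from APP after a cut by beta-secretase, and it releases the intracellular domain of Notch receptors. Presenilin carries the active site, nicastrin (encoded by Ncstn) is the large glycoprotein thought to receive and screen the substrate, an APH-1 protein (Aph1a, Aph1b or Aph1c) is the scaffold on which the complex assembles, and PEN-2 (Psenen) is needed for the presenilin to be cut into its active form. Each complex holds a single presenilin and a single APH-1, so cells can build complexes of different composition. GSAP, the product of Gsap, is known as a modulator of the enzyme that favours amyloid beta production.

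Most mammals have Aph1a and Aph1b, and mice have in addition Aph1c, a duplicate of Aph1b. On GRCm38, the assembly also called mm10, Aph1b (ENSMUSG00000032375) lies on chromosome 9 from 66775202 to 66795490 and Aph1c (ENSMUSG00000053040) from 66814994 to 66834726, both on the minus strand and 19503 bases apart. Their coding sequences were 95.9% identical in the GENCODE transcripts, whereas Aph1a and Aph1b were 59.3% identical. Of all 90-base windows in the Aph1b transcript, 10.8% occurred without a mismatch in Aph1c. In the last 500 bases, 11.9% of the Aph1b windows occurred in Aph1c and 0% of the Aph1c windows in Aph1b. Reads from shared windows cannot be assigned to 1 gene, so the split between Aph1b and Aph1c is uncertain. If such reads were dropped in counting, the sum of the pair is lowered as well. The stretch near the start of both coding sequences, bases 4 to 93 counted from the start codon, is shown because it is among the places where the pair can be told apart. It lies in an exon at 66795273 to 66795362 for Aph1b and at 66834506 to 66834595 for Aph1c. Capitals mark the 12 bases that differ, and all letters are 5′ to 3′ on the strand of the gene.
Aph1b: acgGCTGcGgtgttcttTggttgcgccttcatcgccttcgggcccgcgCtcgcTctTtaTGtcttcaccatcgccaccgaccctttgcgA
Aph1c: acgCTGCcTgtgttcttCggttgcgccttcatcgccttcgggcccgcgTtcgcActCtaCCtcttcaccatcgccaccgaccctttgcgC

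The other members lie apart from each other. Psen2 (ENSMUSG00000010609) is on chromosome 1 from 180227004 to 180263438 and Ncstn (ENSMUSG00000003458) on chromosome 1 from 172066013 to 172082795, both on the minus strand. Aph1a (ENSMUSG00000015750) is on chromosome 3 from 95893969 to 95898288 on the plus strand, and Psenen (ENSMUSG00000036835) is on chromosome 7 from 30561863 to 30563627 on the minus strand. Every member except Aph1b overlaps a gene on the opposite strand, by 521 bases for Aph1a and Car14, 267 for Ncstn and Copa, 327 for Psenen and U2af1l4, 7010 for Psen2 and the antisense gene Gm31728, and 28 for Aph1c and Gm17098. The sources used here do not say whether counting used the strand or included introns, so reads from such overlaps may have been given to the wrong gene.

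After the filter on nuclei, the libraries held 2731 to 5252 nuclei and 21020159 to 43310978 UMIs (unique molecular identifiers, each standing for 1 captured RNA molecule), 32041 nuclei in all. The 6 genes took 38306 UMIs, or 0.0157% of the total, so values were read from sums over all nuclei of a cell type in a library and are given as CPM, the UMIs of a gene scaled to a common total of UMIs for that type and library. Clusters were named from marker genes, and the 6 genes were kept out of the clustering. The named types used were excitatory neurons (13236 nuclei), which comprised dentate granule (5737), CA1 (2537), CA3 (1427) and subiculum or cortex (3535) neurons, then inhibitory neurons (1686), astrocytes (2741), oligodendrocytes (7071), oligodendrocyte precursor cells (OPCs; 1096) and microglia (2173). Each of the 6 major types carried its own markers, and every marker of every list had at least 1 UMI in every type. The summed level of the 8 excitatory markers in microglia was 628 to 1341 CPM, on average 33.6% of that in excitatory neurons, and 28.3% in inhibitory neurons, whereas the microglial list stayed at or below 0.819% of its own level elsewhere. From dates carried by the deposited data, WT mouse 1 and GKO mouse 1 formed batch 1, the J20;WT mouse formed batch 3 alone, and the other mice formed batch 2. Of the barcodes, 134 occurred in more than 1 library, with 2 to 21 shared by a pair of libraries.

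The distribution of the 6 genes over cell types was asked first, within libraries, so that genotype, age and batch were held constant. All 6 genes were found in each of 9 types, and no gene was restricted to a single type. Psen2, Ncstn, Aph1a and Psenen spanned folds of 1.77, 2.91, 1.99 and 2.30 between the types with the highest and lowest mean, whereas Aph1b and Aph1c spanned 4.58 and 5.11. Counts of UMIs were not scaled to transcript length, so levels of different genes are not set against each other.

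**Figure D1:**
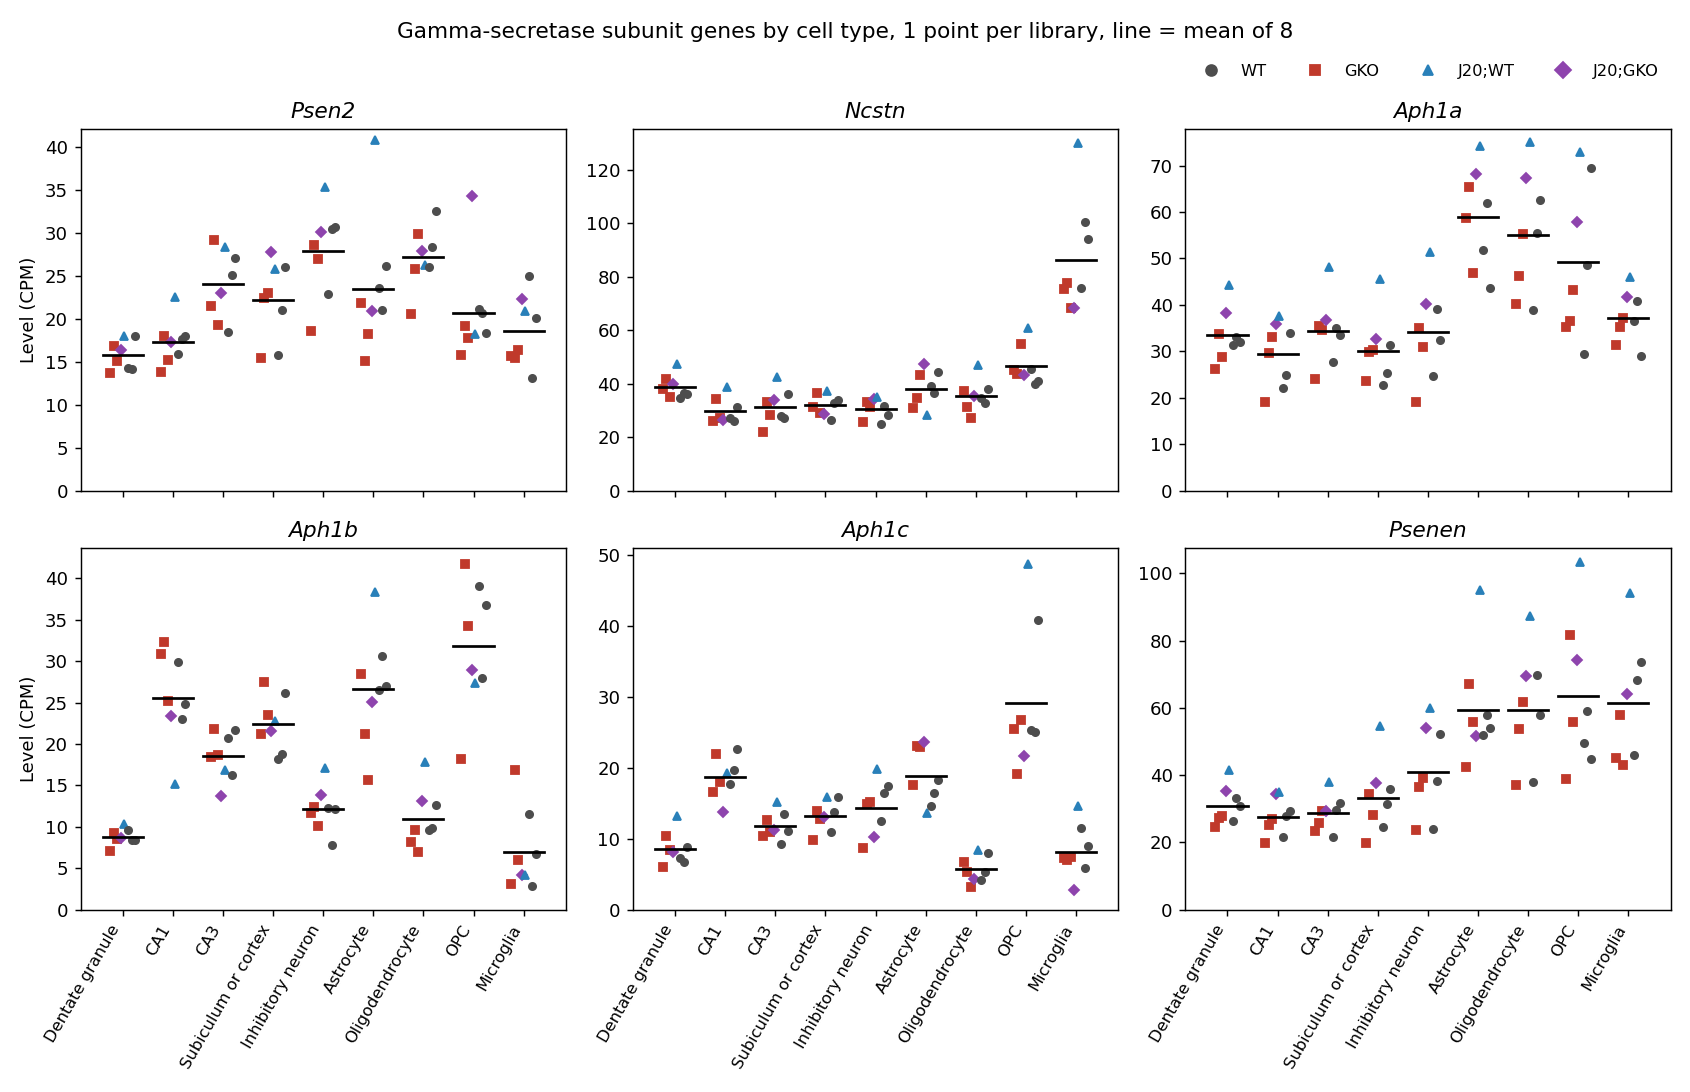
Level of each gene in CPM (vertical axes, each starting at 0) in 9 cell types (horizontal axes), with 1 point per library coloured by genotype and a line at the mean of 8 libraries. Ncstn stands apart in microglia, with a mean of 86.2 CPM, while Aph1b and Aph1c are low in dentate granule neurons, oligodendrocytes and microglia and high in OPCs, astrocytes and CA1 neurons.

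Psen2, a presenilin and thus a catalytic subunit, had its highest mean level in inhibitory neurons, at 28.0 ± 5.17 CPM (SD, n = 8), and in oligodendrocytes, at 27.2 ± 3.499. It was lowest in CA1 neurons (17.3 ± 2.59) and dentate granule neurons (15.8 ± 1.73). In inhibitory neurons the libraries ranged from 18.6 to 35.4 CPM with a median of 29.3, and in dentate granule neurons from 13.8 to 18.1 with a median of 15.8, so all libraries of the former lay above all of the latter. No 2 types that were neighbours in the order of means differed by more than the SD of their difference within libraries. Against excitatory neurons as a whole, Psen2 was higher in inhibitory neurons by 0.44 on the log2 scale (SE 0.09, adjusted p = 2.1e-05, edgeR) and in oligodendrocytes by 0.52 (SE 0.09, adjusted p = 1.7e-06). Within excitatory neurons it was higher in CA3 than in CA1 by 0.46 (SE 0.08, adjusted p = 2.9e-05). In microglia the difference from excitatory neurons was -0.22 (SE 0.14, adjusted p = 0.175), and it passed the threshold without WT mouse 1, at -0.37, or without the filter on low counts, at -0.43. A difference was called where the adjusted p was under 0.05 and the size of the log2 change exceeded 0.3.

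Ncstn, which encodes nicastrin, had its highest level in microglia. The 8 libraries had 68.3 to 129.9 CPM in microglia with a median of 76.7, and 29.1 to 42.1 CPM in excitatory neurons with a median of 31.6. The ranges did not overlap, and the mean of 86.2 ± 21.1 CPM (SD, n = 8) in microglia exceeded that of OPCs, the next type at 46.7 ± 7.28, in 8 of 8 libraries. The highest value belonged to the J20;WT mouse, and the next highest library had 100.4 CPM. Against excitatory neurons the log2 fold change was 1.15 (SE 0.09, adjusted p = 4.4e-16, edgeR). The microglial sums rested on 42 to 79 Ncstn UMIs per library, and microglial nuclei were shallow, with a median of 1672 to 2362 UMIs against 7929 to 12852 in excitatory neurons. Of the excitatory markers, 8 of 8 were found in microglia, and their part in the Ncstn value was not tested.

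Smaller differences of Ncstn were found elsewhere. OPCs exceeded excitatory neurons by 0.36 (SE 0.11, adjusted p = 0.00424, edgeR), a call lost without GKO mouse 3, at 0.29. Dentate granule neurons exceeded CA1 neurons by 0.34 (SE 0.07, adjusted p = 9.8e-05). Dentate granule neurons had 34.5 to 47.5 CPM over the libraries and CA1 neurons 26.1 to 38.9, so their ranges overlapped. In inhibitory neurons, astrocytes and oligodendrocytes the differences from excitatory neurons were -0.20, 0.17 and 0.11, under the size required.

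Psenen, which encodes PEN-2, was higher in every glial type than in excitatory neurons. Its mean was 63.4 ± 21.6 CPM in OPCs, 61.6 ± 17.5 in microglia, 59.5 ± 16.0 in astrocytes and 59.3 ± 16.9 in oligodendrocytes (SD, n = 8), against 30.3 ± 6.32 in excitatory neurons. The 4 glial means could not be ordered, since neighbouring types differed by less than the SD of their difference. The step from oligodendrocytes to inhibitory neurons (41.0 ± 13.5 CPM) was larger than that SD and went the same way in 8 of 8 libraries. On the log2 scale Psenen exceeded excitatory neurons by 0.96 in oligodendrocytes, 0.95 in astrocytes, 0.90 in OPCs and 0.80 in microglia (SE 0.08 to 0.10, adjusted p from 1.2e-15 to 5.4e-10, edgeR). The difference in inhibitory neurons, 0.31 (SE 0.08, adjusted p = 0.0011), lay at the limit of size and was no longer called without the filter on low counts (0.22) or without WT mouse 3 (0.26), GKO mouse 3 (0.30), the J20;WT mouse (0.29) or the J20;GKO mouse (0.28). Among CA1, CA3 and dentate granule neurons Psenen gave no call.

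Aph1a, the scaffold gene that all mammals share, followed Psenen in part. Astrocytes had 43.6 to 74.1 CPM with a median of 60.3, oligodendrocytes 38.9 to 75.2 with a median of 55.3, and OPCs 29.5 to 73.0 with a median of 45.9. Excitatory neurons had 23.5 to 43.8 CPM with a median of 31.7, so the ranges of the libraries overlapped for each of these glial types, although a comparison within libraries removes part of that spread. Aph1a exceeded excitatory neurons by 0.87 in astrocytes (SE 0.08, adjusted p = 8.7e-14, edgeR), by 0.79 in oligodendrocytes (SE 0.08, adjusted p = 4.5e-13) and by 0.44 in OPCs (SE 0.11, adjusted p = 0.000323). Microglia, at 37.2 ± 5.57 CPM (SD, n = 8), differed from excitatory neurons by 0.07 (95% interval -0.15 to 0.28), and inhibitory neurons by 0.0031 (-0.16 to 0.17), a sign that turned with other size factors (-0.0017). Dentate granule and CA3 neurons differed from CA1 by 0.15 and 0.21, under the size required. No neighbours in the order of the 9 means differed by more than the SD of their difference.

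Aph1b and Aph1c, the scaffold genes of the rodent pair, had a pattern of their own, with marked steps between types of neuron. In CA1 neurons Aph1b ranged from 15.2 to 32.4 CPM over the libraries with a median of 25.1, and in dentate granule neurons from 7.04 to 10.4 with a median of 8.58. Every library of CA1 neurons thus lay above every library of dentate granule neurons, and the log2 fold change from CA1 to dentate granule neurons was -1.60 (SE 0.11, adjusted p = 7.9e-13, edgeR). Aph1c showed the same step, from 13.7 to 22.7 CPM in CA1 neurons (median 18.7) to 6.06 to 13.2 in dentate granule neurons (median 8.23), a change of -1.19 (SE 0.10, adjusted p = 1.6e-10). CA3 neurons lay between, and differed from CA1 by -0.49 for Aph1b (SE 0.10, adjusted p = 0.000363) and by -0.69 for Aph1c (SE 0.11, adjusted p = 8.3e-06).

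Among glia the pair separated oligodendrocytes from their precursors. Aph1b had a mean of 31.8 ± 7.64 CPM (SD, n = 8) in OPCs and 10.98 ± 3.45 in oligodendrocytes, and Aph1c 29.1 ± 10.2 and 5.70 ± 1.88. The lowest OPC library (18.2 CPM for Aph1b and 19.1 for Aph1c) was above the highest oligodendrocyte library (17.9 and 8.46). Against excitatory neurons, OPCs were higher by 0.67 for Aph1b (SE 0.16, adjusted p = 0.000312, edgeR) and 1.00 for Aph1c (SE 0.14, adjusted p = 2.7e-08), and oligodendrocytes were lower, with -0.78 and -1.15 (SE 0.15 for both, adjusted p = 6.8e-06 and 9.6e-10). Where nuclei were assigned singly by their own markers, without clusters, the OPC call for Aph1b was lost, at 0.14 (adjusted p = 0.431), as were those for Ncstn (0.23) and Aph1a (0.28), while Aph1c (0.65) and Psenen (0.61) kept theirs. That assignment put 502 nuclei of unnamed clusters and 87 nuclei of excitatory clusters among the OPCs. The inhibitory marker list reached 60.3% of its own level in OPCs, with 7 of 7 markers found, and Nxph1 made up 53.7% of that sum. The part of these nuclei in the values was not tested.

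Astrocytes exceeded excitatory neurons by 0.48 for Aph1b (SE 0.13, adjusted p = 0.00133, edgeR) and 0.53 for Aph1c (SE 0.12, adjusted p = 0.000126). Microglia were lower, with -1.54 for Aph1b (SE 0.23, adjusted p = 7.4e-08) and -0.82 for Aph1c (SE 0.20, adjusted p = 0.000217), on only 2 to 12 UMIs of each gene per library. In inhibitory neurons Aph1b was lower, at -0.69 (SE 0.13, adjusted p = 2.0e-05) and Aph1c was not called, at 0.08 (95% interval -0.14 to 0.30). Excitatory neurons pool subtypes, and the Aph1b means of inhibitory neurons (12.2 CPM) and oligodendrocytes (10.98) were above that of dentate granule neurons (8.78). For Aph1c, oligodendrocytes (5.70) were below dentate granule neurons (8.61). The difference between Aph1b and Aph1c was not tested in any type.

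In all, 27 of 42 tests of a subunit gene between types were called, but differences between cell types are common among all genes, and the counts have to be read against that. In inhibitory neurons 2 members were higher and 1 lower, while 23.0% of all 14840 genes tested were higher and 21.5% lower. In astrocytes 4 were higher and 0 lower, against 34.7% and 35.0% of all genes. In oligodendrocytes 3 were higher and 2 lower (34.8% and 36.9% of all genes), in OPCs 5 and 0 (28.3% and 30.2%), and in microglia 2 and 2 (32.5% and 35.8%). In dentate granule neurons against CA1, 1 was higher and 2 were lower, against 21.6% and 21.7% of 14847 genes, and in CA3 neurons 1 was higher and 2 were lower, against 16.6% and 14.5%. Without the J20;WT library 26 of the 42 tests were called.

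**Figure D2:**
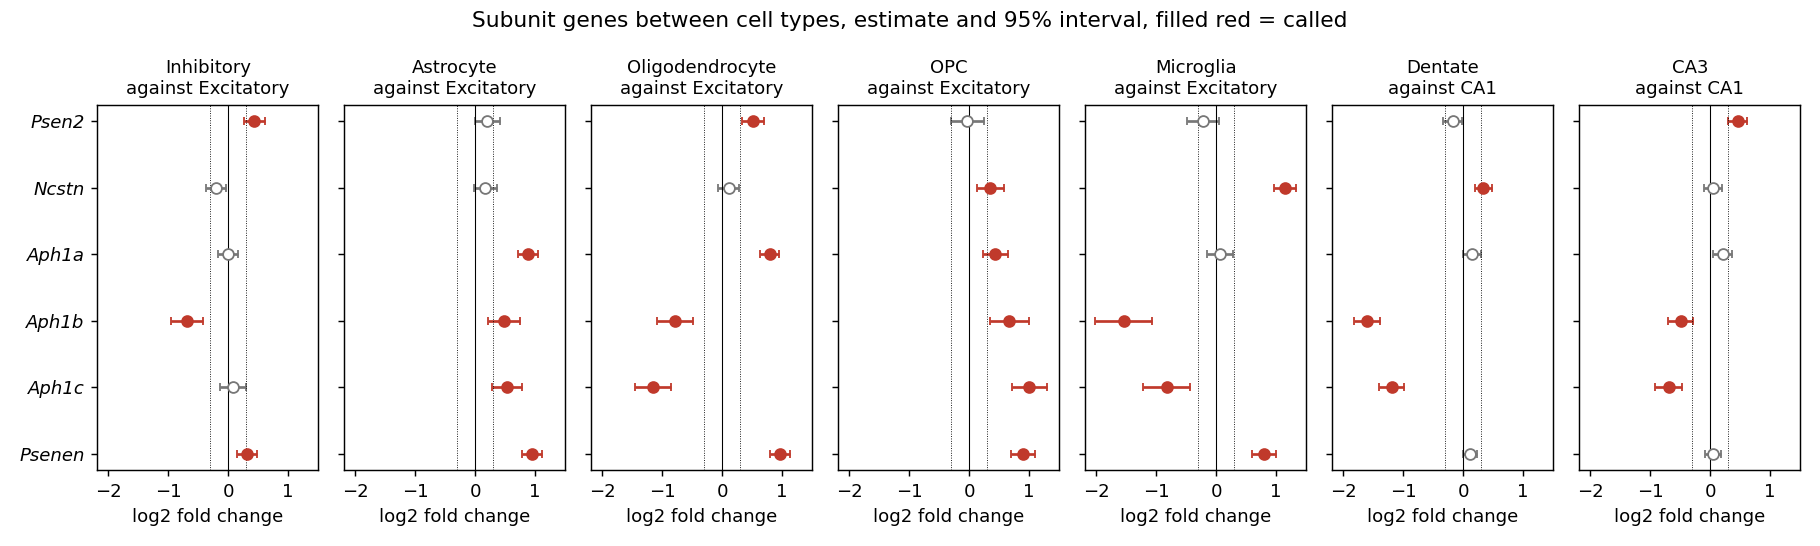
Log2 fold change of each gene (rows) in 7 comparisons of cell types (panels), with the 95% interval; dotted lines mark 0.3 in either direction and red points were called. Aph1b in dentate granule neurons (-1.60) and microglia (-1.54) is farthest from 0, Ncstn is highest in microglia (1.15), and Aph1b and Aph1c lie to the left in oligodendrocytes, microglia, dentate granule and CA3 neurons.

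Because a complex holds a single APH-1 protein, the share of Aph1 UMIs that came from Aph1b and Aph1c together was taken in each type and library. The share is a ratio within a library, so it depends neither on depth nor on the sum of other genes, and it is compared only between types, not between genes. CA1 neurons had the highest mean share, 60.2% ± 8.25 (SD, n = 8), followed by OPCs (56.0% ± 7.00), subiculum or cortex neurons (54.5% ± 4.03), CA3 neurons (47.2% ± 5.15), inhibitory neurons (44.4% ± 5.18) and astrocytes (43.8% ± 3.32). Dentate granule neurons had 34.2% ± 2.35, microglia 28.3% ± 9.46 and oligodendrocytes 23.3% ± 3.86. In CA1 neurons the libraries lay between 47.8% and 71.4% and in dentate granule neurons between 30.4% and 37.0%, with no overlap.

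The share in dentate granule neurons differed from that in CA1 neurons by -26.0 percentage points (SD of the difference 8.28) and in CA3 neurons by -12.997 (SD 3.87), and was lower in 8 of 8 libraries each. Against excitatory neurons (49.6% ± 4.38), the differences were -26.4 points in oligodendrocytes, -21.3 in microglia and 6.32 in OPCs, each with its sign in 8 of 8 libraries (for each of these 5 contrasts, 2-sided exact sign-flip permutation p = 0.0078, the smallest that 8 libraries allow, adjusted p = 0.0109 over 7 contrasts). They were -5.18 points in inhibitory neurons and -5.79 in astrocytes, lower in 7 of 8 libraries (exact permutation p = 0.0156, adjusted p = 0.0156). Excitatory neurons pool subtypes, however, and the mean shares of both types lay above that of dentate granule neurons (34.2%). With single-nucleus assignment the difference in OPCs was 1.73 points (adjusted p = 0.422, exact permutation test), so that call depended on the clusters. The microglial shares rested on 20 to 62 Aph1 UMIs per library, and 298 in all.

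**Figure D3:**
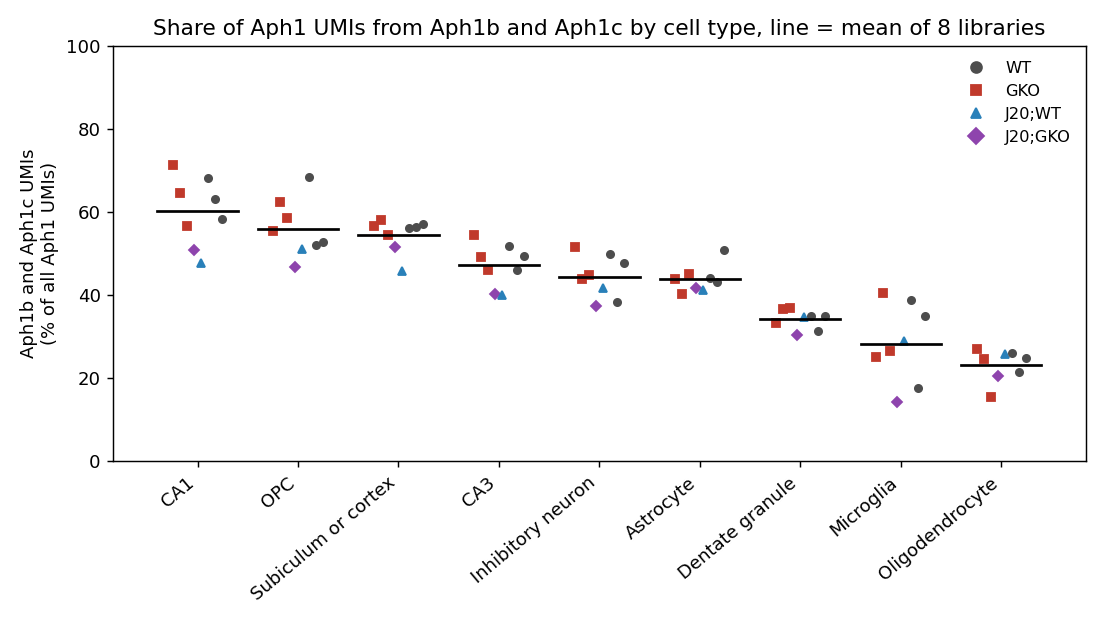
Percentage of Aph1 UMIs that came from Aph1b and Aph1c (vertical axis, 0 to 100%) in 9 cell types ordered by their mean, with 1 point per library and a line at the mean of 8. CA1 neurons (47.8% to 71.4%) and dentate granule neurons (30.4% to 37.0%) do not overlap, and oligodendrocytes are lowest, with a mean of 23.3%.

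The members were also compared with each other over the 9 types, by Pearson's r of log2(mean CPM + 1), given without a test because types share libraries and depth. Aph1b and Aph1c had r = 0.84, Aph1a and Psenen r = 0.82 and Ncstn and Psenen r = 0.62. Psen2 was not close to any member, with r between -0.34 and 0.40. Among 15117 genes, the 3 most like each member by the same measure included Cyth2 for Psen2 (r = 0.95) and Khdrbs1 and Ythdf2 for Ncstn (0.98 for both). They also included Srebf1 for Aph1a (0.98), Nnat for Aph1b (0.91), Spred3 for Aph1c (0.93) and Timm17b for Psenen (0.99). The rest of each 3 are not named, and some had a higher r, as for Aph1c, where the first had 0.98. With 9 points and so many genes, high values of r are easily met.

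The genes around the complex were taken as lists of substrates, of the first cleavage and of modulators. Of the 29 listed substrates 28 could be tested. Against excitatory neurons 10 were higher and 16 lower in astrocytes, 9 and 17 in oligodendrocytes and 10 and 17 in OPCs. In microglia 5 were higher and 21 lower, and in inhibitory neurons 8 and 12. Of all 14840 genes tested, 34.7% were higher and 35.0% lower in astrocytes, and 34.8% and 36.9% in oligodendrocytes. The shares were 28.3% and 30.2% in OPCs, 32.5% and 35.8% in microglia and 23.0% and 21.5% in inhibitory neurons. The median over the list was -0.62 in astrocytes, -1.17 in oligodendrocytes, -0.81 in OPCs, -1.26 in microglia and -0.13 in inhibitory neurons, where the medians of all genes lay between -0.04 and 0.02. Erbb4, the neuregulin receptor, was higher in inhibitory neurons by 7.05 and in OPCs by 5.73, and Notch1, the receptor best known as a gamma-secretase substrate, was higher in astrocytes by 5.70 and in OPCs by 5.39. Nrg1, which encodes a neuregulin, was lower in oligodendrocytes (-3.27) and in astrocytes (-2.96). Between CA1 and dentate granule neurons 8 substrates were higher and 11 lower in the latter, against 21.6% and 21.7% of all genes. The Notch ligand gene Jag1 was at 2.72 and Notch2 at 2.67.

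Of the 4 genes of the first cleavage, which shed the ectodomain before gamma-secretase acts, 3 were higher in oligodendrocytes and 0 lower against excitatory neurons. In microglia and in OPCs 2 were higher and 1 lower, in astrocytes 1 was higher and 0 lower, and in inhibitory neurons 0 were higher and 1 lower. Of all genes, 34.8% were higher and 36.9% lower in oligodendrocytes, 32.5% and 35.8% in microglia and 28.3% and 30.2% in OPCs. In astrocytes the shares were 34.7% and 35.0%, and in inhibitory neurons 23.0% and 21.5%. Bace2, a relative of the beta-secretase of APP, was lower in dentate granule than in CA1 neurons (-2.21) and higher in CA3 than in CA1 neurons (2.14). The 9 modulators and assembly factors have to be read against the same shares. In astrocytes 7 of them were higher and 1 lower, and in OPCs 8 and 1. Of these modulators, 7 were higher and 0 lower in microglia, 4 and 3 in oligodendrocytes and 3 and 1 in inhibitory neurons. Gsap itself was among them, with 160.1 ± 22.2 CPM in microglia, 160.3 ± 17.1 in OPCs and 156.4 ± 27.4 in astrocytes, against 4.96 ± 0.814 in excitatory neurons (SD, n = 8), log2 fold changes of 4.82, 4.87 and 4.93 (SE 0.09 to 0.10, adjusted p from 1.4e-42 to 1.9e-40, edgeR). These 8 libraries include those of the 3 GKO mice and the J20;GKO mouse, which carry the Gsap deletion.

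The question behind GKO mice is whether loss of Gsap changes these cells, and here whether it changes the subunit genes. Gsap was examined before the members, since it was the deleted gene. Over all nuclei, the WT mice had 22.5, 23.0 and 22.3 CPM of Gsap and the mice labelled GKO had 19.8, 21.8 and 22.0, and in microglia the values were 190.2, 157.2 and 185.5 against 146.5, 136.6 and 154.5. In OPCs they were 158.2, 169.6 and 144.9 against 137.2, 193.1 and 166.4, and in astrocytes 126.8, 174.8 and 159.6 against 103.5, 174.9 and 170.0. The mice labelled GKO lay below the WT mice without overlap over all nuclei and in microglia but overlapped them in OPCs and astrocytes. The log2 fold changes were -0.07 (SE 0.09) over all nuclei and -0.28 (SE 0.17) in microglia, 0.07 (SE 0.17) in OPCs and -0.03 (SE 0.21) in astrocytes (adjusted p = 1.00 for each, edgeR), and CA1 and inhibitory neurons had 0.21 and 0.13. Excitatory neurons as a whole had -0.15 (SE 0.20). Of the other excitatory subtypes, dentate granule neurons had -0.19 (SE 0.45), CA3 neurons -0.17 (SE 0.27) and subiculum or cortex neurons -0.37 (SE 0.25), none of them called. The deletion takes out internal exons, and counts per gene do not tell which exons were read, so these values check the labels only in part. By genomic PCR and quantitative RT-PCR, the study itself found the targeted exons excised and Gsap mRNA reduced in GKO mice. Gsap also overlaps Ccdc146 on the opposite strand over 22172 bases.

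**Figure D4:**
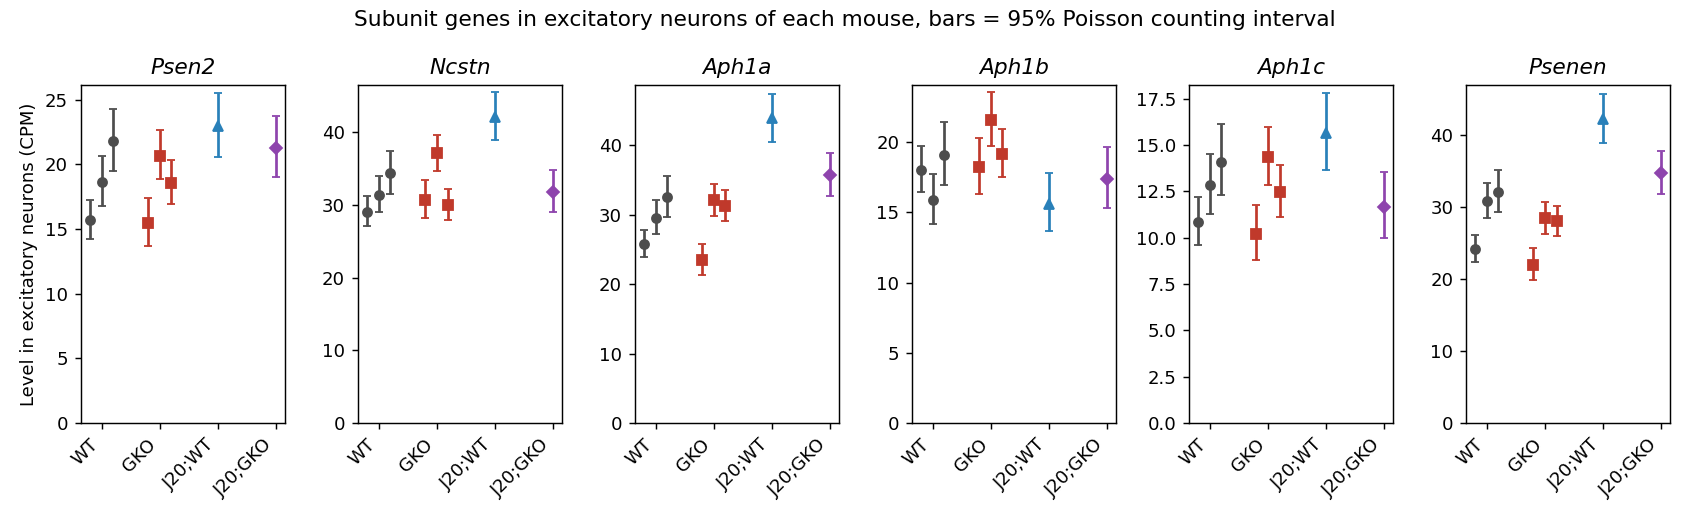
Level of each gene in excitatory neurons in CPM (vertical axes, each starting at 0) for each mouse of 4 groups, with bars for the 95% Poisson interval, which covers counting error only. The WT and GKO mice overlap for all 6 genes, and the J20;WT mouse is above the other 7 mice for every gene except Aph1b.

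In excitatory neurons, which hold most of the UMIs, the mice labelled GKO and the WT mice overlapped for all 6 genes. Psen2 had 15.7, 18.7 and 21.8 CPM in WT mice and 15.5, 20.7 and 18.6 in GKO mice. Ncstn had 29.1, 31.4 and 34.4 against 30.7, 37.1 and 29.98. Aph1a had 25.8, 29.6 and 32.5 against 23.5, 32.1 and 31.3. Mouse 1 was the lowest of its genotype in each case but Ncstn in GKO mice, and the ranges of the genotypes overlapped.

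For the remaining genes the picture was the same. Aph1b had 18.0, 15.9 and 19.1 CPM in WT mice and 18.2, 21.6 and 19.2 in GKO mice. Aph1c had 10.8, 12.8 and 14.1 against 10.2, 14.3 and 12.5, and Psenen had 24.2, 30.8 and 32.1 against 22.0, 28.4 and 28.0. The log2 fold changes were 0.18 for Aph1b (95% interval -0.08 to 0.43), -0.13 for Psenen (-0.42 to 0.17), 0.07 for Ncstn (-0.18 to 0.31), -0.01 for Psen2 (-0.32 to 0.31), 0.0056 for Aph1a (-0.28 to 0.29) and -0.0030 for Aph1c (-0.33 to 0.32). These intervals leave room for changes of about the required size in either direction for Psen2 and Aph1c, and for a decrease of Psenen and an increase of Aph1b or Ncstn.

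The same held in the other types. Of 64 tests of a member, in 11 comparisons (all nuclei, excitatory neurons and 9 types), 0 were called and 0 had an unadjusted p under 0.05, the smallest being 0.112. Fitted log2 fold changes lay between -0.37, for Aph1b in astrocytes, and 0.39, for Aph1c in astrocytes, and 95% intervals reached from -1.06 to 0.89. Aph1b and Aph1c had too few UMIs in microglia to be tested, and in Cajal-Retzius cells no member passed the filter. In none of the 54 pairs of a gene and a type did the 3 mice labelled GKO lie wholly above or below the 3 WT mice, against 6.71% of all 138830 pairs of a gene and a type with at least 20 UMIs. No gene was called in any of the 12 comparisons, Cajal-Retzius cells included, so the share of all genes called was 0%. By unadjusted p under 0.05 there were 67 to 254 genes per comparison, and DESeq2 called at most 1. With the replicate number as a block, 19 genes were called in OPCs and 0 to 2 in each other comparison, and with batch as a term 15 in OPCs, but 0 members in either fit.

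**Figure D5:**
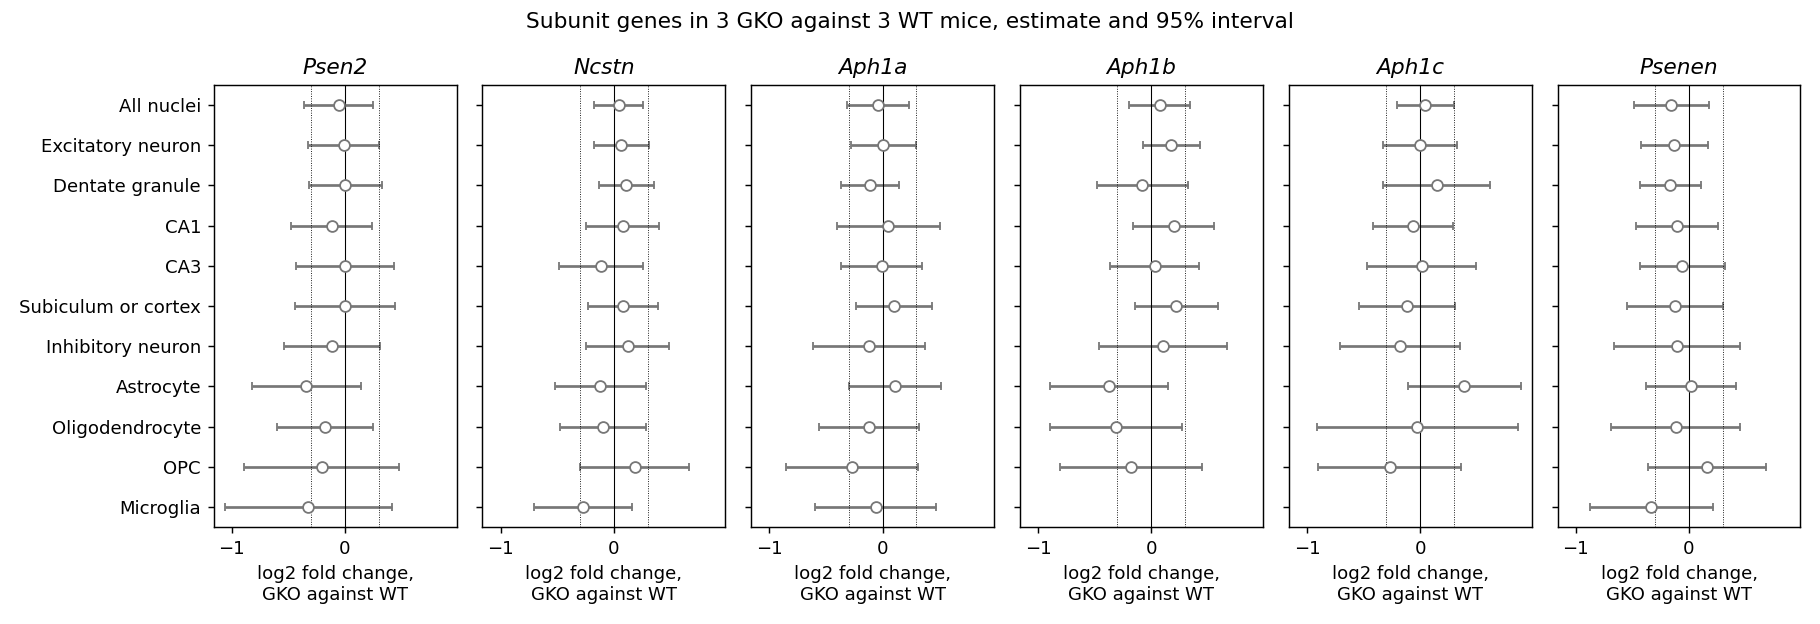
Log2 fold change of each gene (panels) between 3 GKO and 3 WT mice in 11 comparisons (rows), with the 95% interval; dotted lines mark 0.3 in either direction. Every interval includes 0, and Aph1b and Aph1c have no value in microglia.

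Within batches the values were as small. In excitatory neurons of batch 1, with 1 mouse per genotype, the log2 ratio of GKO to WT was -0.14 for Aph1a, -0.14 for Psenen, 0.08 for Ncstn, -0.02 for Psen2, 0.02 for Aph1b and -0.09 for Aph1c. In batch 2, with 2 mice per genotype, it was 0.03, -0.16, 0.03, -0.04, 0.22 and -0.0068 for the same genes in the same order. In excitatory neurons Aph1a had 23.5 and 25.8 CPM in batch 1 and 29.6 to 35.7 in batch 2, and in 6 of 9 types both mice of batch 1 lay below all 5 mice of batch 2 for Aph1a, and likewise in 6 of 9 for Psenen. For Psen2, Ncstn, Aph1b and Aph1c this was so in 2, 1, 0 and 2 types. That made 17 of 54 pairs of a member and a type below and 0 above, where 15.0% of all 138830 pairs of a gene and a type were below and 9.41% above. Excitatory nuclei of batch 1 were also deeper, with medians of 12778.5 and 12852 UMIs, against 9101 to 10979 in batch 2. The part of depth in these values was not tested.

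Of the gene lists around the complex, 0 of 29 substrates, 0 of 4 genes of the first cleavage and 0 of 9 modulators were called between the mice labelled GKO and WT mice over all nuclei or in excitatory neurons. Medians over the lists in excitatory neurons were -0.06, 0.02 and -0.07, where the median of all genes was 0.0041.

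The J20 pair has 1 mouse per genotype, so no test was made, and the J20;WT mouse was alone in its batch, so that genotype and batch cannot be told apart. In excitatory neurons the J20;WT mouse had 42.1 CPM of Ncstn, 43.8 of Aph1a and 42.2 of Psenen, above the ranges of the 6 mice without the transgene (29.1 to 37.1, 23.5 to 32.5 and 22.0 to 32.1). The J20;GKO mouse had 31.8, 35.7 and 34.7, within the range for Ncstn and above it for Aph1a and Psenen. Over all 54 pairs of a gene and a type, the J20;WT mouse was above the 6 mice in 41 and below in 3, and the J20;GKO mouse above in 19 and below in 4. Of all 138830 such pairs, the J20;WT mouse was above the 6 mice in 25.4% and below in 18.1%, and the J20;GKO mouse above in 17.8% and below in 16.0%. The 54 pairs of the subunit genes share libraries and are not independent, so no test was made of this contrast. The J20 mice were also 1 mo younger than the 6 mice.

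The ratio of J20;GKO to J20;WT in excitatory neurons was 0.755 for Ncstn (95% counting interval 0.668 to 0.852), 0.746 for Aph1c (0.609 to 0.913), 0.813 for Aph1a (0.724 to 0.914) and 0.822 for Psenen (0.730 to 0.926). Psen2 had 0.927 (0.793 to 1.08) and Aph1b 1.11 (0.928 to 1.33). The intervals cover counting error alone, not the spread between mice. In microglia the ratio for Ncstn was 0.526 (0.354 to 0.777), from 68.3 CPM in the J20;GKO mouse, just below the lowest of the 6 mice without the transgene (68.34), and 129.9 in the J20;WT mouse. In CA1 neurons Aph1b went the other way, with a ratio of 1.54 (1.08 to 2.20), because the J20;WT mouse had 15.2 CPM where the 6 mice had 23.0 to 32.4.

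Read against all genes, such differences were common in the pair. A log2 ratio under -0.3 was seen in 2 of 6 members in excitatory neurons, against 21.5% of 14455 genes with enough UMIs, and in 3 of 6 in inhibitory neurons, against 19.0%. In the glial types fewer members had enough UMIs, with 1 of 3 under -0.3 in astrocytes (27.3% of all genes), 2 of 4 in oligodendrocytes (28.5%), 2 of 2 in OPCs (22.0%) and 2 of 3 in microglia (22.1%). Only decreases were counted, for members and for all genes. In astrocytes Ncstn went the other way, with a log2 ratio of 0.73 from 34 UMIs in the J20;GKO mouse and 23 in the J20;WT mouse.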

How the data were processed

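Single-nucleus RNA sequencing (10x Genomics) was done on the hippocampus of 8 mice, and the deposited values are UMI counts per gene and nucleus, which the authors made with Cell Ranger on mm10. The submitters' processing notes also name Seurat 3.0 and R 3.6.2. The handling of introns and of strand is not given in the sources used here. The counts were used as deposited.

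Nuclei with 200 to 7500 genes and at most 5% mitochondrial UMIs were kept. They were integrated by library with sctransform 0.4.2 and Seurat 5.3.0 (30 principal components, 20 neighbours, resolution 0.8), leaving the 6 genes and the pathway lists out of the features. The 42 clusters were named from marker lists, and 3406 nuclei (10.6%) stayed unnamed. Scrublet, run with an expected share of 6%, called 1 doublet in WT mouse 1 and 0 in GKO mouse 1 and so did not work there. It called 3.45% to 6.50% in the other libraries. No nucleus was removed singly for it. Clusters where it called over 25% of the nuclei from those libraries stayed unnamed and so were left out of the types.

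UMIs were summed per library and type, for types with at least 10 nuclei in every library. edgeR 4.0.16 (R 4.3.3) gave quasi-likelihood tests with TMM scaling, its default filter on low counts and Benjamini-Hochberg adjustment over all genes tested, with the library as a block between types. A difference was called where the adjusted p was under 0.05 and the size of the log2 change exceeded 0.3. Shares of Aph1 UMIs were compared by an exact sign-flip permutation test, paired by library. Intervals at 95% on counts are exact Poisson or binomial intervals and cover counting error only. DESeq2 1.42.0, other scalings and filters, a per-nucleus marker assignment and the omission of each library were tried as alternatives. The scripts were tested on simulated data.

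Replicate numbers were shared by the WT and GKO labels. The deviations from the group means correlated with r = 0.57, 0.18 and 0.22 for mice numbered 1, 2 and 3. Pairs of other numbers within batch 2 reached 0.22 and 0.30, so these values do not show that numbers 2 and 3 pair the mice. The fit reported between GKO and WT had no block, and the replicate number was tried as a block among the alternatives. Sequences and positions are from GENCODE transcripts on GRCm38.

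Named genes were the 6 members, Gsap, listed genes called between GKO and WT, at most the 2 highest and 2 lowest listed genes per comparison of types, and for each member genes among the 3 most like it over types. The members and lists were chosen with earlier results of these data known. Each mouse gave 1 library, so p-values between GKO and WT measure the spread between mice. Between cell types, p-values measure the spread of the differences within libraries.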

Additional observations from a re-analysis of the deposited data

How the results depend on the processing

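The number of members called between cell types in all was 24 to 28 of 42 under the alternatives run for it, which did not include DESeq2, and 0 members were called between GKO and WT mice under any alternative run there, the replicate block included, which changed no call of a member. With per-nucleus assignment, 2 members were called in OPCs in place of 5, and the difference in the Aph1b and Aph1c share there was 1.73 percentage points (adjusted p = 0.422, exact permutation test). Genes called between GKO and WT mice, 0 in the fit reported, became 19 in OPCs, 2 in Cajal-Retzius cells and 1 each over all nuclei, in astrocytes and in CA3 neurons with the replicate block, and 15 in OPCs and 1 in astrocytes with a batch term. Without the filter on low counts they were 9 in CA3 neurons, 9 in OPCs, 3 in microglia and 1 each in Cajal-Retzius cells and dentate granule neurons, and with DESeq2 1 each in oligodendrocytes and subiculum or cortex neurons. Leaving out a mouse gave 0 to 2 in CA1 neurons and 0 to 1 in CA3, Cajal-Retzius and inhibitory cells and in OPCs. The cause was not tested.

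Signs turned only for differences that were not called. For Aph1a in inhibitory neurons the values were -0.039 with per-nucleus assignment, -0.0017 with relative log expression size factors, -0.088 without the filter and -0.037 to 0.033 without 1 library. For Aph1c there they were -0.075 with per-nucleus assignment and -0.0069 without the filter, and for Aph1a in microglia -0.15 without the filter. For Psen2 in OPCs they were 0.013 with relative log expression factors, 0.12 with library size alone, 0.064 in the sign-flip test and -0.13 to 0.038 without 1 library. Between GKO and WT excitatory neurons, Aph1a had -0.0014 with the replicate block and with the batch term, -0.013 with library size alone and -0.067 to 0.11 without 1 mouse. Psen2 had 0.011 with per-nucleus assignment and -0.11 to 0.092 without 1 mouse, Aph1c 0.0016 with relative log expression factors, 0.0040 without the filter, 0.0025 with DESeq2 and -0.10 to 0.089 without 1 mouse, and Ncstn -0.0093 to 0.13 without 1 mouse. Of the recomputed mean levels, 591 moved by less than 1 SD and 3 by more. Low counts of Aph1b and Aph1c in microglia, 3 mice per genotype and a single mouse in each J20 group limit what could be seen.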

Other observations

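The types left out of the comparisons between cell types gave pooled values over 8 libraries. In choroid plexus cells (211 nuclei, 1 to 73 per library), which make cerebrospinal fluid, Aph1b and Aph1c supplied 188 of 270 Aph1 UMIs, 69.6% (exact 95% interval 63.8 to 75.1). Of those 188 UMIs, 145 were Aph1c, 77.1% (70.5 to 82.9), whereas over all nuclei Aph1c made up 43.6% of the pair. Aph1c had 72.1 CPM in these cells (60.9 to 84.9), and WT mouse 1 and GKO mouse 1 together gave most of its UMIs, with 54 and 50. In Cajal-Retzius cells, early-born neurons that line the hippocampal fissure, Psen2 had 34.1 CPM (22.5 to 49.7) from 27 UMIs. Endothelial cells had 58.3 CPM of Ncstn (29.1 to 104.4) from 11 UMIs, and mural cells 55.8 CPM of Psenen (31.9 to 90.6) from 16 UMIs. The intervals cover counting error only.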
